A study of Mus musculus with 24 samples.

Results

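The 39 genes described here code for the machinery that copies DNA in S phase, from origin recognition to the joining of finished fragments. They were taken by gene symbol from a named list, and each of the 39 was found once among the 56748 genes of the deposited table. All 39 passed the filter on low values, an FPKM (fragments scaled to gene length and library size) of at least 1 in at least 4 of 24 libraries, which kept 12904 genes in all.

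The RNA came from C2C12, an immortalised line of mouse myoblasts, infected with a lentivirus from which doxycycline induces UCP1, a mitochondrial protein that lets protons leak back past ATP synthase. In every group the cells carried this vector, and 24 h after seeding they received doxycycline or an equal volume of water. Treatment began 24 h later and lasted 16 h. Dox_OOA had doxycycline with 1 µM oligomycin, an inhibitor of ATP synthase, and 300 µM oleic acid, and OOA had the same 2 compounds with water. Dox_OA and OA had 300 µM oleic acid without oligomycin, with doxycycline and with water. No albumin concentration was recorded for the groups with oleic acid. Dox_BSA and BSA had 51 µM bovine serum albumin, with doxycycline and with water. Each of the 6 groups held 4 libraries. The labels do not say whether these were separate cultures, so the p-values may rest on technical spread alone. No group had doxycycline without the UCP1 vector, so an effect of the drug and one of UCP1 cannot be told apart.

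Libraries held 20370651 to 29410667 reads, and each correlated with the others of its group at a mean of 0.9812 to 0.9882 over the tested genes. On the second principal component of these genes (10.08% of the variance), Dox_BSA library 1 lay at 2.23, apart from the rest of its group at -7.13 to -3.02. Ucp1, the induced gene, was at 207 to 224 FPKM in Dox_OOA against 3.88 to 5.38 FPKM in OOA, 309 to 339 FPKM in Dox_OA against 6.32 to 7.67 FPKM in OA, and 332 to 341 FPKM in Dox_BSA against 4.24 to 5.85 FPKM in BSA (exact permutation test, two-sided, p = 0.0286 each, the smallest that 4 against 4 allows). The 8 myoblast markers checked were all measured, with sums of 259 to 272 FPKM in Dox_OOA, 211 to 220.2 FPKM in OOA, 233 to 246 FPKM in Dox_OA, 215 to 218 FPKM in OA, 250.2 to 263 FPKM in Dox_BSA and 244 to 259.8 FPKM in BSA. These sums hide markers that moved in opposite directions by limma (adjusted p under 0.05). In OOA vs OA, 3 of the 8 were lower and 4 higher, with log2 changes from -0.83 to 1.77. In Dox_OOA vs Dox_OA, 2 were lower and 6 higher. Of 12904 tested genes, 3664 were lower and 3673 higher in OOA vs OA, and 2198 and 2085 in Dox_OOA vs Dox_OA. Markers of macrophages, endothelial cells and adipocytes summed to at most 4.17, 0.135 and 0.236 FPKM in any library.

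DNA replication starts at origins bound by the origin recognition complex. Before S phase, CDC6 and CDT1 load the ring of MCM2 to MCM7 there, and in S phase CDC45 and the GINS complex join the ring to form the running helicase. RPA coats the single strand it exposes, primase and the DNA polymerases copy it, and the sliding clamp PCNA, opened by the RFC clamp loader, holds the polymerases on the template. Many of these genes are transcribed at the passage from G1 to S phase under E2F transcription factors, which cyclin E with its kinase helps to free from the retinoblastoma protein. In muscle cells the set is high in cycling myoblasts and low after withdrawal from the cell cycle.

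Nearly the whole set was lower when oligomycin was added, in both arms, and the fall was smaller with doxycycline. With doxycycline, 38 of 39 members were lower in Dox_OOA than in Dox_OA, where 17% of all tested genes were called lower. With water, 38 of 39 members were lower in OOA than in OA, where 28.4% of all tested genes were called lower. No member was higher in either comparison by limma, also at an unadjusted p under 0.05, or by limma-voom on recovered reads. The median log2 change of the 39 was -0.58 in Dox_OOA vs Dox_OA and -1.17 in OOA vs OA, beside 0.003 and 0.008 over all tested genes. In OOA vs OA, 28 members were at least 2-fold lower, against 3% of all tested genes. In Dox_OOA vs Dox_OA, 0 members were on this log2(FPKM + 1) scale, where only 25 of 12904 tested genes were. This scale understates low genes. By mean FPKM, Dox_OOA was below 50% of Dox_OA for 3 members, Cdc6 (45.9%), Fen1 (46.03%) and Ccne2 (46.7%). The summed FPKM of the 39 genes was 492 to 534 in Dox_OOA, 339.7 to 373 in OOA, 761 to 796 in Dox_OA, 861 to 918 in OA, 709.7 to 799.6 in Dox_BSA and 780.3 to 824 in BSA. In these bulk libraries, fewer cells in S phase and less transcript per cell cannot be told apart. The 4 groups without oligomycin lay above both groups with it, and Dox_OOA lay between OOA and those 4 without overlap.

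**Figure D1:**
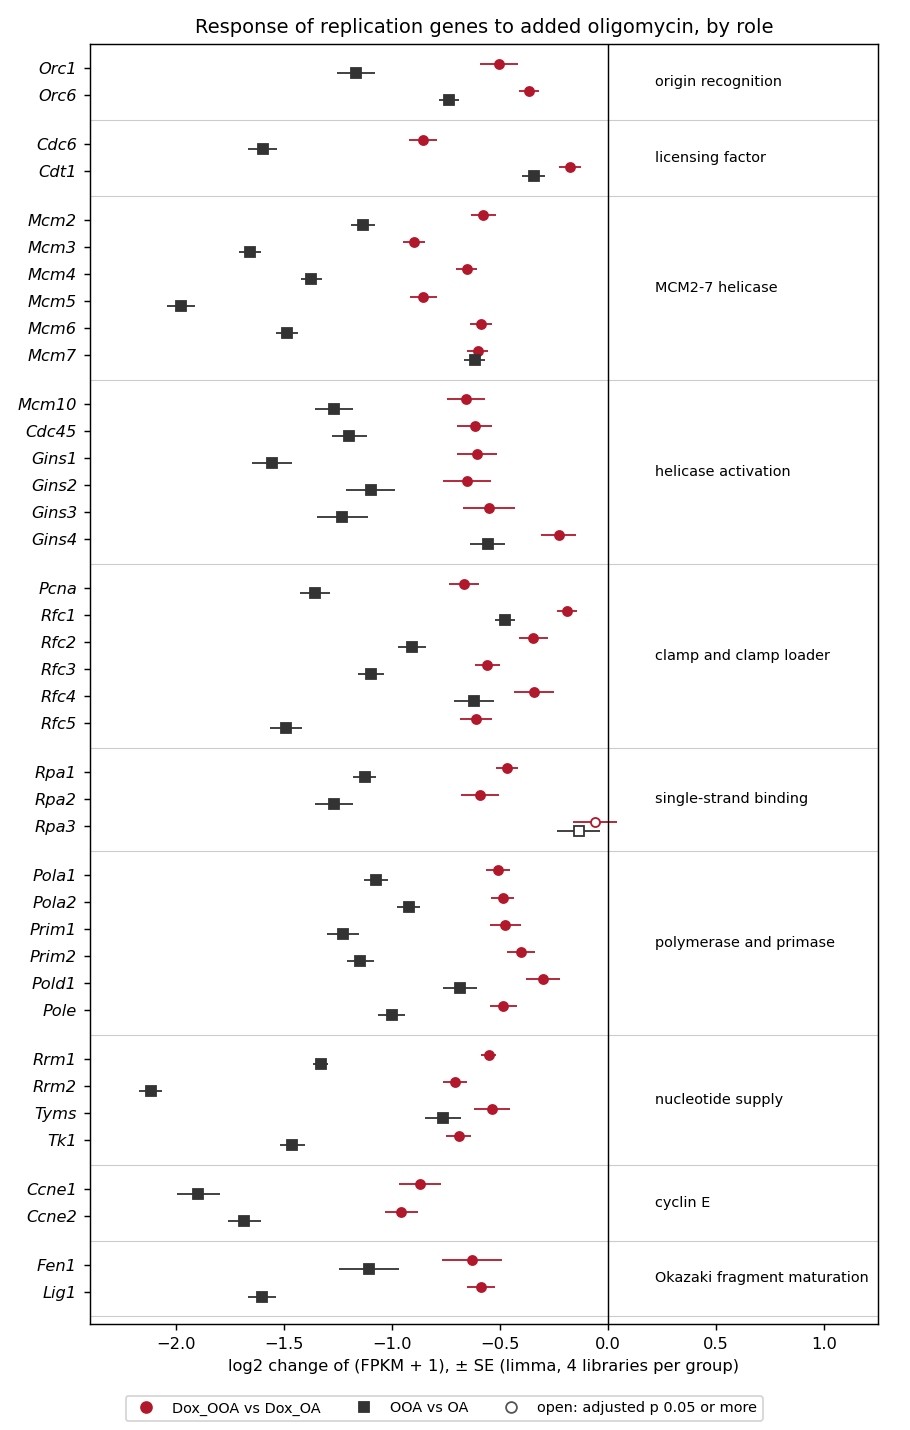
Log2 change of (FPKM + 1) of all 39 genes after oligomycin was added to oleic acid, with doxycycline (Dox_OOA vs Dox_OA, red circles) and with water (OOA vs OA, dark squares), ± SE from limma with 4 libraries per group and open symbols where the adjusted p was 0.05 or more. Every point lies left of 0, the dark squares reach -2.12 at Rrm2, and Rpa3 alone has open symbols in both arms.

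RefSeq promoter windows (GRCm38.p6) were found for 31 of the 39 genes, and the 250 bases upstream of each start were searched on both strands for 4 spellings of the E2F recognition letters, TTTCCCGC, TTTGGCGC, TTTCGCGC and TTTGCCGC. Matches may overlap, since reversed spellings share their GC core. At least 1 match lay in 8 of the 31 windows (25.8%), those of Orc1, Cdc6, Mcm5, Mcm6, Mcm7, Gins3, Rfc3 and Pola1, against 3.79% of the 8603 tested protein-coding genes with a window. CCAAT, the letters bound by NF-Y, was in 20 of the 31 (64.5%) against 37.3% of those 8603. In separate lists, E2F letters lay in 6 of 38 windows of other replication genes (15.8%) and 1 of 22 of mitosis genes (4.55%). CCAAT lay in 15 of the 38 (39.5%) and in 17 of the 22 (77.3%), so it was not particular to the members. A match is a description of letters and not a bound site. The 170 bases upstream of 6 starts are shown, 5′ to 3′ on the gene's strand, with E2F letters in capitals. Mcm5, Mcm6 and Cdc6 had matches and large falls, and Mcm7 had a match and a smaller fall. Rrm2 had the largest fall on the log2(FPKM + 1) scale and Rpa3 the smallest, both without a match.
Mcm5: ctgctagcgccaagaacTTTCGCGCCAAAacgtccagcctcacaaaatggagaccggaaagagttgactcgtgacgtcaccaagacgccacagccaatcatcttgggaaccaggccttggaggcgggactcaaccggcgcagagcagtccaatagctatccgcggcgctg
Mcm6: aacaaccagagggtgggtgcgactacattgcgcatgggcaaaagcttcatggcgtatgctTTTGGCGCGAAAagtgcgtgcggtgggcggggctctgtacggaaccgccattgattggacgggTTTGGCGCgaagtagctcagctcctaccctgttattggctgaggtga
Cdc6: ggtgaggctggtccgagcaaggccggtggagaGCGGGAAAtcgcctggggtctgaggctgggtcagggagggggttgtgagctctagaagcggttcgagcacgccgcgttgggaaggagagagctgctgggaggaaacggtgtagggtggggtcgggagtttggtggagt
Mcm7: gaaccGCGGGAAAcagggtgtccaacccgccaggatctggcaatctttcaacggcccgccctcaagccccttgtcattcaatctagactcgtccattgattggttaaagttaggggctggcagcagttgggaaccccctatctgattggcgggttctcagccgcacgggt
Rrm2: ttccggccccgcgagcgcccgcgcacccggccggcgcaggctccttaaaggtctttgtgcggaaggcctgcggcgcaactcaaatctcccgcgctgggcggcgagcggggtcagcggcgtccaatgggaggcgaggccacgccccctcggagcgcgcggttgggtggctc
Rpa3: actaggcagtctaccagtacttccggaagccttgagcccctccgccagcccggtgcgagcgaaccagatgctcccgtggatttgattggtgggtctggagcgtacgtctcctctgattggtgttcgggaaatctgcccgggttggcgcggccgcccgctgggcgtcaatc
These lie at chr8:75109339-75109508 (plus strand), chr1:128359706-128359875 (minus), chr11:98907981-98908150 (plus), chr5:138171884-138172053 (minus), chr12:24708084-24708253 (plus) and chr6:8259142-8259311 (minus). The Mcm5 run in capitals holds 2 overlapping matches, and the longer run of Mcm6 also holds 2. The RefSeq start used for Mcm7 was 539 bases from the principal GENCODE start, while the starts of 24 of the 31 genes were within 100 bases. Members with and without E2F letters had the same median log2 change in OOA vs OA, -1.20 for 8 genes and -1.20 for 23 genes.

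ORC1 and ORC6 are subunits of the origin recognition complex. Orc1 (ENSMUSG00000028587, chromosome 4, 108436620 to 108472030, plus strand, GRCm39) had 1.88, 1.65, 2.09 and 1.45 FPKM in Dox_OOA, against 2.78, 3.48, 2.63 and 2.79 FPKM in Dox_OA. With water the values were 1.33, 0.917, 1.005 and 1.36 FPKM in OOA, against 4.12, 4.08, 3.62 and 3.49 FPKM in OA. The groups did not overlap in either arm, and the log2 change was -0.50 ± 0.09 with doxycycline (SE, adjusted p = 1.14e-04) and -1.17 ± 0.09 with water (adjusted p = 9.67e-11). Orc6 changed less, by -0.37 with doxycycline and -0.74 with water on the log2 scale. Orc6 (mean of 42.8 FPKM) shares 171 bases with Vps35 (77.1 FPKM) on the other strand. Cdc6 and Cdt1, whose products load the MCM ring together, moved by very different amounts. Cdc6 had 2.32, 2.27, 2.29 and 1.78 FPKM in Dox_OOA, against 4.86, 4.50, 4.58 and 4.95 FPKM in Dox_OA. Without doxycycline it had 1.11, 1.06, 1.08 and 0.846 FPKM in OOA, against 5.22, 4.67, 5.54 and 5.13 FPKM in OA, so that OOA was at 19.97% of the OA mean. Its log2 change was -0.86 ± 0.07 with doxycycline and -1.60 ± 0.07 with water (adjusted p = 1.01e-09 and 1.81e-15). Cdt1 had 11.9, 12.1, 12.6 and 11.03 FPKM in Dox_OOA, against 12.9, 13.97, 13.9 and 13.5 FPKM in Dox_OA. In the water arm the values were 11.9, 11.7, 12.01 and 11.6 FPKM in OOA, against 15.6, 14.7, 15.2 and 15.6 FPKM in OA, and OOA stayed at 77.3% of the OA mean. The fall of Cdt1 was the smallest of the 38 called in either arm, -0.18 ± 0.05 with doxycycline and -0.34 ± 0.05 with water (adjusted p = 0.0110 and 4.73e-06), and the groups did not overlap.

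The products of Mcm2 to Mcm7 form a single ring with 1 copy of each. All 6 genes fell in both arms, but unequally. Mcm5 (ENSMUSG00000005410, chromosome 8, 75836197 to 75855067, plus strand, GRCm39) had 19.8, 18.9, 18.5 and 17.2 FPKM in Dox_OOA, against 36.4, 35, 36.5 and 30.01 FPKM in Dox_OA. With water it had 9.94, 10.2, 9.79 and 9.92 FPKM in OOA, against 41.8, 43.8, 42.3 and 40.5 FPKM in OA. Dox_OOA was at 53.9% of the Dox_OA mean and OOA at 23.6% of the OA mean, with log2 changes of -0.85 ± 0.06 and -1.98 ± 0.06 (adjusted p = 5.80e-10 and 1.85e-17). Mcm7 (ENSMUSG00000029730, chromosome 5, 138162845 to 138170684, minus strand, GRCm39) had 23.98, 26.2, 21.9 and 22.8 FPKM in Dox_OOA, against 37.8, 36.6, 37.1 and 34.5 FPKM in Dox_OA. With water the values were 28.2, 27.7, 26.4 and 25.98 FPKM in OOA, against 40.5, 42.1, 43.4 and 42.1 FPKM in OA. Its log2 change was -0.60 ± 0.05 with doxycycline and -0.62 ± 0.05 with water (adjusted p = 1.55e-09 and 1.56e-10), and neither pair overlapped. Mcm2, Mcm3, Mcm4 and Mcm6 changed by -0.58, -0.90, -0.65 and -0.59 on the log2 scale with doxycycline. With water the same 4 changed by -1.13, -1.66, -1.37 and -1.49.

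The make-up of the 6 MCM transcripts differed in OOA and, in other members of the ring, also in Dox_OOA. Mcm7 made up 17.5 to 19.6% of the summed MCM2 to MCM7 FPKM in Dox_OOA and 28.7 to 29.6% in OOA, and between 16.5% and 18.2% in all 16 libraries without oligomycin. Mcm5 made up 13.97 to 14.99% in Dox_OOA and 10.4 to 10.98% in OOA, against 14.7 to 16.9% in Dox_OA and 16.9 to 17.7% in OA. The Mcm7 share in OOA lay above that of every other library and the Mcm5 share below. Mcm6 made up 25.27 to 26.13% in Dox_OOA, above every other library, and 19.87 to 21.74% in OOA, below every other library. Without oligomycin the Mcm6 share was 22.0 to 24.63%. Mcm3 made up 15.81 to 17.5% in Dox_OOA and 15.29 to 15.97% in OOA, against 17.79 to 20.05% without oligomycin. The sum itself was 123 to 137 FPKM in Dox_OOA, 89.2 to 95.6 FPKM in OOA, 204 to 216 FPKM in Dox_OA and 239 to 251 FPKM in OA. These shares were computed after the values of Mcm5 and Mcm7 had been seen and are given without a test. Mcm7 hosts the miRNA genes Mir106b, Mir93 and Mir25 and overlaps Ap4m1 (3.49 FPKM) by 421 bases and Cops6 (34.6 FPKM) by 64 bases on the other strand, and the sources used here do not say whether counting used strand.

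**Figure D2:**
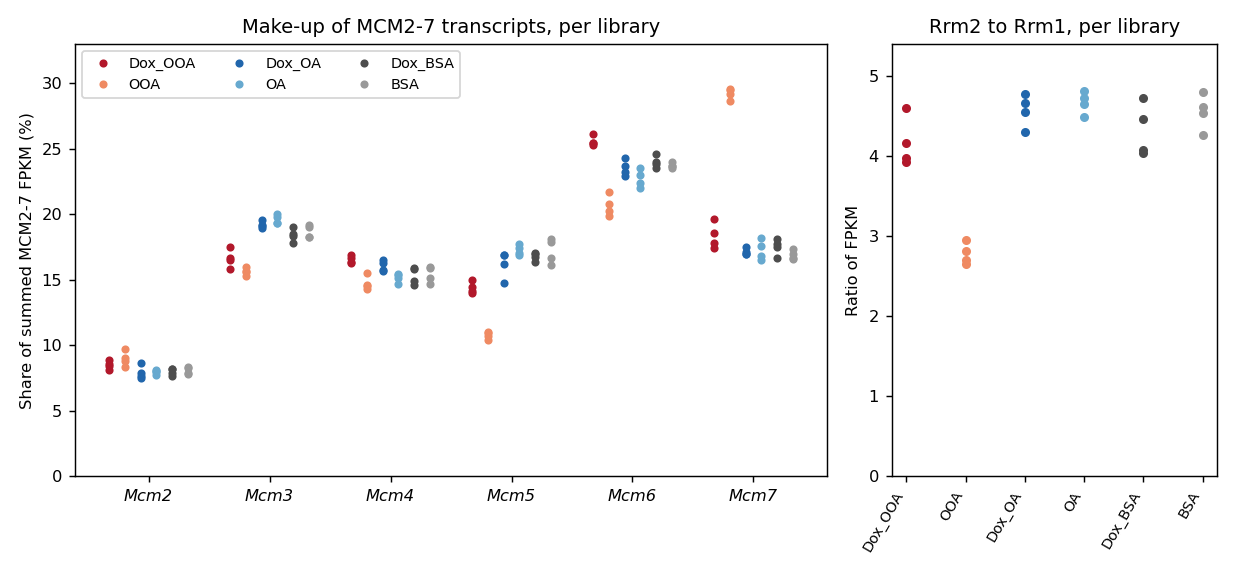
Left, the share of each MCM gene in the summed FPKM of Mcm2 to Mcm7 (%), and right, the ratio of Rrm2 to Rrm1 FPKM, with 1 point per library and 4 libraries for each of the 6 groups. Mcm7 holds 28.7% to 29.6% of the sum in OOA, above every other library, and the Rrm2 to Rrm1 ratio is 2.66 to 2.95 in OOA, below every other library.

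MCM10, CDC45 and the 4 GINS subunits turn the loaded ring into a running helicase. All 6 genes fell in both arms, 5 of them at least 2-fold in OOA vs OA. Gins1 had 5.33, 5.72, 4.98 and 3.86 FPKM in Dox_OOA, against 7.44, 9.13, 7.37 and 8.27 FPKM in Dox_OA. Without doxycycline it had 3.09, 2.62, 2.67 and 2.86 FPKM in OOA, against 10.7, 10.2, 10.1 and 9.77 FPKM in OA. Its log2 change of -0.61 ± 0.09 with doxycycline and -1.55 ± 0.09 with water was the largest of the 6 in OOA vs OA (adjusted p = 2.52e-05 and 1.73e-12). Mcm10, Cdc45, Gins2 and Gins3 changed by -0.66, -0.62, -0.65 and -0.55 with doxycycline, and by -1.27, -1.20, -1.10 and -1.23 with water. Gins4 changed least, -0.23 ± 0.08 with doxycycline and -0.56 ± 0.08 with water (adjusted p = 0.0352 and 3.96e-06). In the doxycycline arm its groups overlapped, at 18.2, 22.9, 19.1 and 18.04 FPKM in Dox_OOA against 21.5, 25.5, 24.2 and 21.1 FPKM in Dox_OA. That call was lost without any one of Dox_OOA libraries 1, 3 and 4 or Dox_OA libraries 2 and 3, with adjusted p of 0.0725 to 0.12, and also with no filter (0.0889) or only the compared groups (0.0649). Gins2 shares 2758 bases with Gse1 (3.57 FPKM), and Cdc45 shares 209 bases with Ufd1 (12.8 FPKM), both on the other strand.

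PCNA is the sliding clamp and RFC1 to RFC5 form its loader. Pcna had 28.02, 30.7, 27.8 and 25.8 FPKM in Dox_OOA, against 44.1, 43.3, 49.9 and 43.4 FPKM in Dox_OA. In the water arm the values were 20.5, 21.4, 19.1 and 22.2 FPKM in OOA, against 56.5, 60.2, 52.99 and 49.96 FPKM in OA. The groups did not overlap, and the log2 change was -0.67 ± 0.07 with doxycycline and -1.36 ± 0.07 with water (adjusted p = 1.23e-07 and 1.03e-13). The level of Pcna is uncertain, because 781 of its transcript bases match the processed pseudogene Pcna-ps2 at 99.23% identity and counting could split reads between them. Pcna-ps2 averaged 52.7 ± 8.76 FPKM in Dox_OOA, 38.6 ± 3.62 FPKM in OOA, 80.8 ± 5.41 FPKM in Dox_OA and 89.8 ± 6.79 FPKM in OA (SD, n = 4), higher than Pcna in each group. Among the loader genes, Rfc5 changed most, by -0.61 ± 0.07 with doxycycline and -1.49 ± 0.07 with water (adjusted p = 8.36e-07 and 4.12e-14). Rfc5 had 6.91 to 9.18 FPKM in Dox_OOA, 4.06 to 5.26 FPKM in OOA, 11.7 to 13.2 FPKM in Dox_OA and 14.4 to 15.1 FPKM in OA. Rfc1, the gene of the large subunit, changed by -0.19 ± 0.05 with doxycycline and -0.48 ± 0.05 with water, and was at 15.2 to 16.9 FPKM in Dox_OOA, 13.7 to 15.2 FPKM in OOA, 17.8 to 19.3 FPKM in Dox_OA and 19.3 to 21.8 FPKM in OA. Rfc2, Rfc3 and Rfc4 changed by -0.34, -0.56 and -0.34 with doxycycline and by -0.91, -1.10 and -0.62 with water. The subunits of this complex spanned log2 changes from -1.49 to -0.48 in OOA vs OA. On the other strand, Rfc4 (mean of 10.8 FPKM) shares 194 bases with Eif4a2 (55.3 FPKM), Rfc5 (11.1 FPKM) shares 499 bases with Wsb2 (19.1 FPKM), and Rfc2 shares 1784 bases with Lat2, which was at 0.088 FPKM.

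RPA1, RPA2 and RPA3 are the large, middle and small subunits of RPA. Rpa1 and Rpa2 changed by -0.47 ± 0.05 and -0.59 ± 0.09 with doxycycline and by -1.13 ± 0.05 and -1.27 ± 0.09 with water. Rpa2 had 11.01, 8.48, 8.40 and 7.05 FPKM in Dox_OOA, against 13.4, 13.6, 14.4 and 12.7 FPKM in Dox_OA. With water it had 5.74, 5.73, 5.19 and 5.26 FPKM in OOA, against 15.3, 15.8, 12.7 and 14.8 FPKM in OA. Neither pair overlapped. Rpa3 (ENSMUSG00000012483, chromosome 6, 8255936 to 8259173, minus strand, GRCm39), the member whose change was called in neither arm, had 15.7, 13.2, 15.1 and 14.2 FPKM in Dox_OOA, against 15.97, 15.1, 17.4 and 12.6 FPKM in Dox_OA. With water the values were 17.5, 15.1, 12.97 and 16.01 FPKM in OOA, against 14.5, 18.5, 18.4 and 16.6 FPKM in OA. Both pairs overlapped, and the log2 change was -0.06 ± 0.10 with doxycycline (95% interval -0.27 to 0.15, adjusted p = 0.696) and -0.14 ± 0.10 with water (95% interval -0.35 to 0.07, adjusted p = 0.262). The interval with water lies above the change of Rpa1 and of Rpa2.

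POLA1, POLA2, PRIM1 and PRIM2 make up the enzyme that lays the first primers, and POLD1 and POLE are the catalytic subunits of the polymerases that extend them. All 6 genes fell in both arms. With doxycycline the log2 changes ran from -0.51 for Pola1 to -0.30 for Pold1, with -0.49 for Pola2, -0.47 for Prim1, -0.40 for Prim2 and -0.49 for Pole. With water they ran from -1.23 for Prim1 to -0.69 for Pold1, with -1.07 for Pola1, -0.92 for Pola2, -1.15 for Prim2 and -1.0 for Pole. Prim1 had 6.87, 9.47, 7.30 and 7.55 FPKM in Dox_OOA, against 11.1, 10.4, 11.5 and 11.6 FPKM in Dox_OA. Without doxycycline it had 4.81, 4.89, 4.08 and 4.998 FPKM in OOA, against 12.6, 12.1, 12.4 and 12.1 FPKM in OA. Pold1 had 8.74, 8.17, 6.85 and 8.70 FPKM in Dox_OOA, against 9.94, 11.1, 10.5 and 9.26 FPKM in Dox_OA. With water Pold1 had 6.41, 6.45, 5.01 and 6.74 FPKM in OOA, against 9.54, 11.4, 10.5 and 10.4 FPKM in OA. The groups of both genes were apart in both arms. OOA was at 38.2% of the OA mean for Prim1 and at 58.8% for Pold1.

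RRM1 and RRM2 are the large and small subunits of ribonucleotide reductase, which makes deoxynucleotides. Thymidylate synthase (Tyms) and thymidine kinase 1 (Tk1) supply thymidine nucleotides. Rrm2 (ENSMUSG00000020649, chromosome 12, 24758240 to 24764145, plus strand, GRCm39), the member with the highest level, also had the largest fall with water on the log2(FPKM + 1) scale. As a share of the OA mean, Ccne1, Cdc6 and Fen1 were lower than Rrm2 in OOA. It had 79.5, 74.7, 69.8 and 72.2 FPKM in Dox_OOA, against 126, 117, 122 and 121 FPKM in Dox_OA. In the water arm the values were 32.2, 32.1, 30.1 and 33.3 FPKM in OOA, against 149, 144, 136 and 138 FPKM in OA. Dox_OOA was at 60.96% of the Dox_OA mean and OOA at 22.5% of the OA mean, with log2 changes of -0.71 ± 0.05 and -2.12 ± 0.05 (adjusted p = 8.36e-10 and 4.32e-19). Rrm1 changed by -0.55 ± 0.03 with doxycycline and -1.33 ± 0.03 with water. The ratio of Rrm2 to Rrm1 FPKM was 3.93 to 4.60 in Dox_OOA, 2.66 to 2.95 in OOA, 4.31 to 4.78 in Dox_OA, 4.49 to 4.81 in OA, 4.03 to 4.73 in Dox_BSA and 4.26 to 4.79 in BSA. OOA lay below all other libraries in this ratio, which was computed after the values were seen. Tk1 had 12.6, 12.8, 11.5 and 13.1 FPKM in Dox_OOA, against 19.95, 22.2, 20.9 and 20.1 FPKM in Dox_OA. With water Tk1 had 7.87, 7.49, 7.58 and 8.24 FPKM in OOA, against 22.9, 25.2, 22.3 and 22.5 FPKM in OA. Its log2 change was -0.69 ± 0.06 with doxycycline and -1.46 ± 0.06 with water. Tyms changed by -0.54 ± 0.08 with doxycycline and -0.76 ± 0.08 with water, at 6.81 to 9.24 FPKM in Dox_OOA, 7.39 to 7.86 FPKM in OOA, 11.3 to 12.4 FPKM in Dox_OA and 12.9 to 14.5 FPKM in OA.

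Ccne1 and Ccne2 code for the cyclins E1 and E2, which drive entry into S phase. Both were among the 4 members with the largest falls on the log2(FPKM + 1) scale in both arms. Ccne1 had 5.27, 5.16, 3.91 and 5.17 FPKM in Dox_OOA, against 10.1, 8.998, 8.55 and 11.3 FPKM in Dox_OA. With water it had 1.76, 2.61, 1.58 and 2.11 FPKM in OOA, against 10.4, 11.4, 8.75 and 10.2 FPKM in OA. Dox_OOA was at 50.04% of the Dox_OA mean and OOA at 19.8% of the OA mean, and the log2 change was -0.87 ± 0.10 and -1.90 ± 0.10 (adjusted p = 3.99e-07 and 1.25e-13). Ccne2 had 5.12, 4.61, 4.26 and 4.68 FPKM in Dox_OOA, against 9.37, 9.94, 10.4 and 10.2 FPKM in Dox_OA. With water Ccne2 had 3.35, 3.14, 2.76 and 2.89 FPKM in OOA, against 12.8, 12.7, 10.96 and 11.4 FPKM in OA. Its change of -0.96 ± 0.08 was the largest of any member with doxycycline on this scale, but with a pseudocount of 0.1 Cdc6 changed more (-1.10, against -1.08 for Ccne2). The change of Ccne2 was -1.69 ± 0.08 with water. The groups of both cyclins were apart in both arms. Ccne2 overlaps Ints8 by 5622 bases on the other strand.

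FEN1 trims the flaps between lagging-strand fragments and DNA ligase 1 (Lig1) joins them. Lig1 had 15.3, 16.8, 14.6 and 13.8 FPKM in Dox_OOA, against 22.3, 22.5, 24.5 and 23.3 FPKM in Dox_OA. With water the values were 9.08, 6.73, 7.54 and 7.84 FPKM in OOA, against 25.4, 26.1, 24.7 and 26.04 FPKM in OA. Its log2 change was -0.59 ± 0.06 with doxycycline and -1.60 ± 0.06 with water (adjusted p = 2.54e-07 and 1.15e-15). Fen1 was the member with the lowest level, 19 to 167 reads per library, and shares 3253 bases with the antisense lncRNA Gm10143 (0.088 FPKM) and 156 bases with Tmem258 (21.7 FPKM) on the other strand. It had 1.18, 0.803, 0.945 and 0.626 FPKM in Dox_OOA, against 1.63, 1.52, 2.12 and 2.45 FPKM in Dox_OA. With water Fen1 had 0.379, 0.321, 0.515 and 0.566 FPKM in OOA, against 2.35, 1.995, 1.84 and 2.26 FPKM in OA. The groups were apart in both arms, and the log2 change, understated at such levels, was -0.63 ± 0.14 with doxycycline and -1.11 ± 0.14 with water. With a pseudocount of 0.1 these were -1.04 and -2.04, and Dox_OOA was at 46.03% of the Dox_OA mean and OOA at 21.1% of the OA mean.

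**Figure D3:**
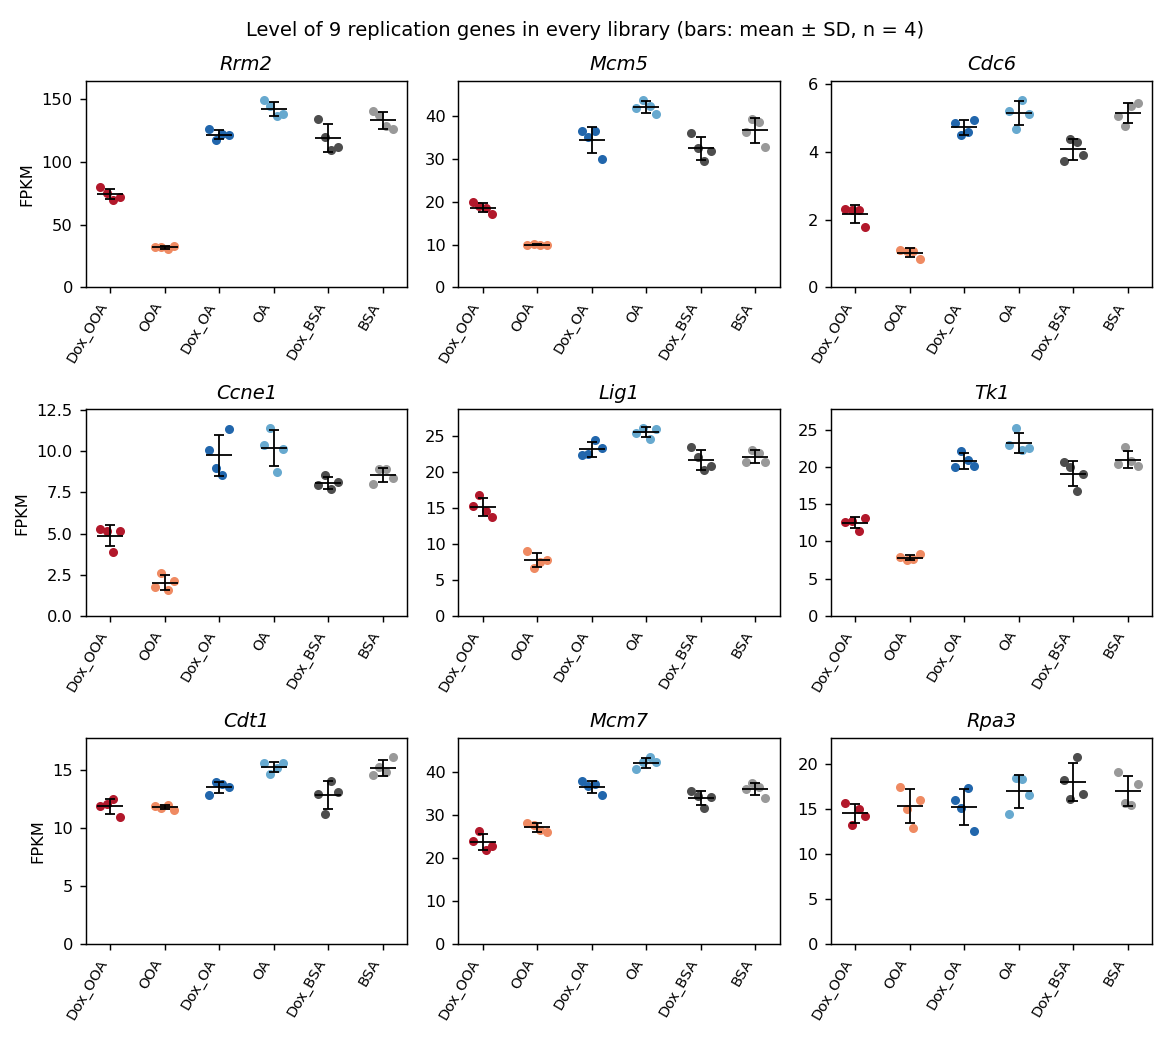
FPKM of 9 genes in each of the 24 libraries, by group, with bars for the mean ± SD of 4 libraries. In Rrm2, Mcm5, Cdc6, Ccne1, Lig1 and Tk1, Dox_OOA lies above OOA and below the 4 groups without oligomycin, while Dox_OOA and OOA overlap in Cdt1, Mcm7 and Rpa3.

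The difference between arms was tested as an interaction, the oligomycin response with doxycycline minus that with water. All 39 members had a value above 0, a smaller fall with doxycycline (the sign of Mcm7 turned without OA library 3, OOA library 4, Dox_OA library 4 or Dox_OOA library 2, and that of Rpa3 without Dox_OA library 4), and 33 passed the test, where 15.1% of all tested genes were called in this direction. The 2 arms share no library. The log2 response with doxycycline was 47.3% of that with water at the median over members, from 33.4% for Rrm2 to 97.8% for Mcm7. The difference was largest for Rrm2, 1.41 ± 0.08 (adjusted p = 9.63e-12), followed by Mcm5 at 1.12 ± 0.09, Ccne1 at 1.03 ± 0.14 and Lig1 at 1.01 ± 0.09. Cdc6 differed by 0.74 ± 0.09 (adjusted p = 1.69e-06), and by 1.13 with a pseudocount of 0.1. The 6 members that did not pass were Mcm7, Rpa3, Cdt1, Tyms, Rfc4 and Fen1. For Mcm7 the difference was 0.01 ± 0.07, with a 95% interval of -0.13 to 0.15 that lies below the difference of each of the 33 called members. For Rpa3 the interval was -0.22 to 0.37 and for Tyms -0.02 to 0.47, while for Cdt1 (0.02 to 0.32), Rfc4 (0.00 to 0.55) and Fen1 (0.07 to 0.88) it lay above 0 before adjustment over all genes (adjusted p = 0.0846, 0.121 and 0.0736). The call of Gins2 (0.45 ± 0.16, adjusted p = 0.0378) was lost without any one of OA libraries 1 to 3, OOA libraries 2 and 3, Dox_OA libraries 2 to 4 or Dox_OOA libraries 1 and 2 (0.0509 to 0.0922), and that of Gins4 (0.33 ± 0.12, adjusted p = 0.0360) without OA library 2 or 4, OOA library 3 or 4, Dox_OA library 1 or 4, or Dox_OOA library 2 (0.0532 to 0.0902). The calls of Gins2 and Gins4 were also lost with no filter (0.0949 and 0.0924), and that of Gins4 with only the compared groups fitted (0.0522). Rfc4 was called without OOA library 1, Cdt1 without Dox_OOA library 4, and Fen1 without Dox_OA library 4 or Dox_OOA library 4, at adjusted p of 0.0382 to 0.0482. Fen1 was also called with a pseudocount of 0.1 (0.99, adjusted p = 0.0242) and by limma-voom on recovered reads (1.15, adjusted p = 0.0403), against 0.48 in the limma fit above, and with only the compared groups fitted both Fen1 (adjusted p = 0.0408) and Cdt1 (adjusted p = 0.0374) were called.

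**Figure D4:**
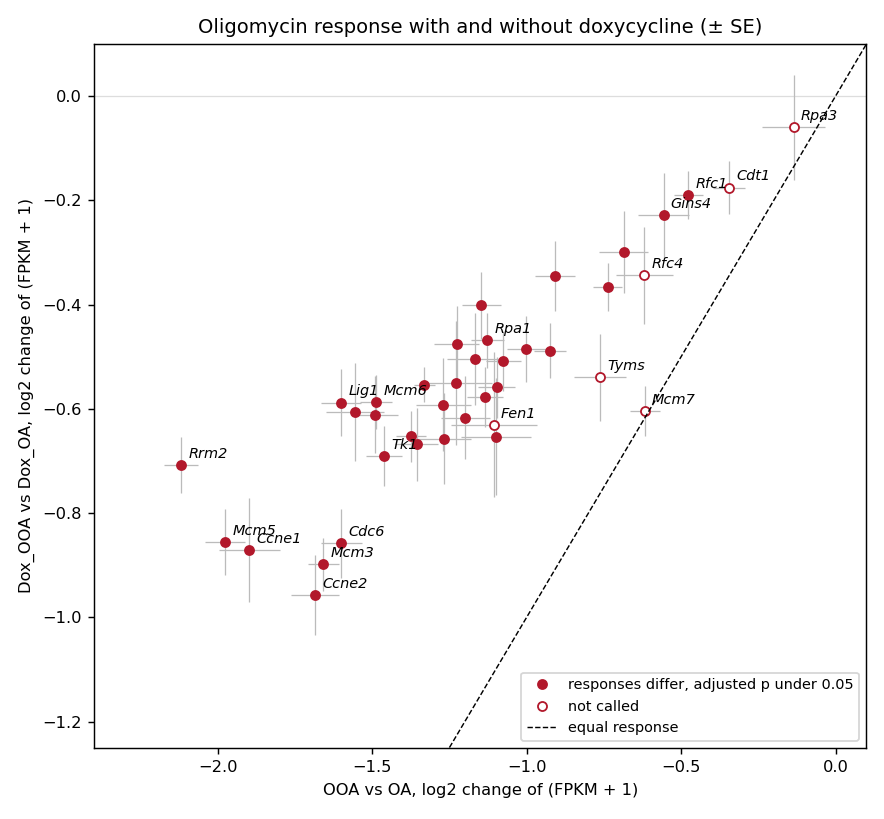
Log2 change of (FPKM + 1) after oligomycin in each arm for the 39 genes, Dox_OOA vs Dox_OA against OOA vs OA, ± SE, with filled points where the responses differed at an adjusted p under 0.05 and the dashed line at equal response. All points lie above the line, Rrm2 among the farthest from it and Mcm7 on it.

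Under oligomycin, most of the set was higher with doxycycline than with water. In Dox_OOA vs OOA, 34 members were higher, where 22% of all tested genes were called higher, and 1 was lower, where 23.7% of all tested genes were called lower. This comparison shares libraries with those above but is not the same measure. The interaction also takes in Dox_OA vs OA, where all 39 members had log2 changes below 0, as did 6897 of 12904 tested genes. The log2 change was 1.19 ± 0.05 for Rrm2, 0.97 ± 0.10 for Ccne1, 0.88 ± 0.06 for Lig1 and 0.84 ± 0.06 for Mcm5 (adjusted p = 4.19e-14, 2.83e-08, 1.47e-10 and 2.42e-10). Dox_OOA was at 242% of the OOA mean for Ccne1, 232% for Rrm2 and 211% for Cdc6. The 1 member that was lower with doxycycline was Mcm7, at -0.18 ± 0.05 (adjusted p = 0.00286), although Dox_OOA library 2 lay within the range of OOA. Cdt1 (0.01, adjusted p = 0.918), Tyms (0.03, 0.785), Rfc4 (0.21, 0.0711) and Rpa3 (-0.07, 0.608) did not pass. Gins3 (0.39) lost its call without OOA library 4, Gins4 (0.21) without OOA library 3 or 4 or Dox_OOA library 2 or 3, and Fen1 (0.38) without OOA library 1 or 2 or Dox_OOA library 1 or 3, at adjusted p of 0.0513 to 0.177. All 3 also lost it with only the compared groups fitted (0.0518 to 0.0993). With no filter Gins4 and Fen1 lost it (0.0897 and 0.0626), and by limma-voom on recovered reads Gins4 did (0.0586). Rfc4 was called without OOA library 1 or Dox_OOA library 4, at adjusted p of 0.0149 and 0.0317, and also with rescaling (0.0233) and a replicate block (0.0429).

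Without oligomycin the direction of the doxycycline comparison was the opposite and small. In Dox_OA vs OA, 14 members were lower, where 7.01% of all tested genes were called lower. These were Orc1, Orc6, Cdt1, Mcm2, Mcm3, Mcm5, Mcm7, Gins1, Pcna, Rfc3, Rpa1, Rrm1, Rrm2 and Ccne2. Their log2 changes ran from -0.31 ± 0.09 for Gins1 to -0.15 ± 0.05 for Orc6, and the median over all 39 members was -0.15, beside -0.01 over all tested genes. Rrm1, with the smallest p, had 26.95, 27.1, 25.5 and 26.6 FPKM in Dox_OA, against 31.03, 30.5, 29.3 and 30.7 FPKM in OA, without overlap (-0.19 ± 0.03, adjusted p = 9.97e-04). The count of 14 depends on single libraries and fell to between 5 and 9 without any one of the 8. Of all genes called in this comparison 37.9% were higher, and 54.6% were after rescaling every library to an equal sum, where 8 members were called lower. In Dox_BSA vs BSA, 2 members were lower, Cdc6 at -0.28 ± 0.07 and Cdt1 at -0.23 ± 0.05 (adjusted p = 0.0249 and 0.0159), where 1.07% of all tested genes were called lower. Cdc6 had 3.73, 4.37, 4.28 and 3.90 FPKM in Dox_BSA, against 5.04, 4.77, 5.34 and 5.44 FPKM in BSA, without overlap. This count was 0 without BSA library 4, 4 without Dox_BSA library 1, and 1 without BSA library 1, BSA library 3, Dox_BSA library 2 or Dox_BSA library 4.

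**Figure D5:**
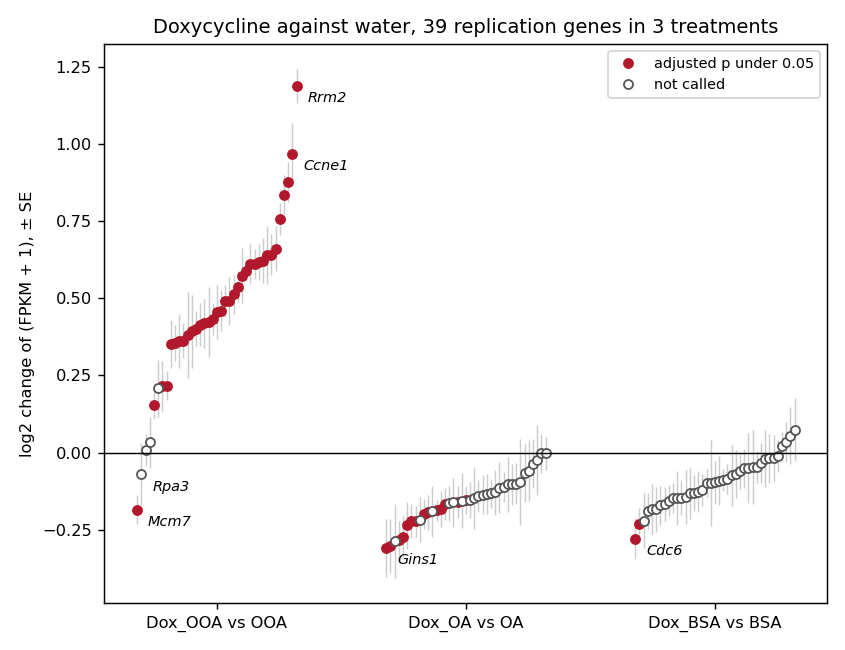
Log2 change of (FPKM + 1) between doxycycline and water for the 39 genes in each treatment, ± SE and sorted within each comparison, with filled points for an adjusted p under 0.05. In Dox_OOA vs OOA the values reach 1.19 at Rrm2 with Mcm7 lowest, while in Dox_OA vs OA 14 are filled, all below 0.

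A few members were slightly higher with oleic acid, without oligomycin, than with albumin and no oleic acid. In OA vs BSA, 8 members were higher, where 4.67% of all tested genes were called higher. These were Gins1 (0.36 on the log2 scale), Ccne2 (0.33), Orc1 (0.29), Pcna (0.28), Mcm3 (0.26), Mcm7 (0.22), Mcm4 (0.17) and Rfc1 (0.17). Mcm3 had 49.3, 48.4, 46.1 and 47.5 FPKM in OA, against 41.5, 39.4, 39.3 and 38.9 FPKM in BSA, without overlap (0.26 ± 0.05, adjusted p = 0.00137). The number called was 4 without OA library 2 and 5 without BSA library 3, BSA library 4 or OA library 1. Over all genes called, 56.4% were higher in OA, and 38.5% were after rescaling to a fixed sum, where 5 members were called higher. In Dox_OA vs Dox_BSA, 2 members were higher, Mcm3 at 0.19 ± 0.05 and Mcm4 at 0.20 ± 0.05 (adjusted p = 0.0190 and 0.0103), where 3.39% of all tested genes were called higher. Neither was called without Dox_BSA library 4, and 1 was without Dox_BSA library 3 or Dox_OA library 1. The oleic acid response did not differ between arms for any member by limma's test (0 of 39, where 0.635% of all tested genes were called in either direction), 3 members had an unadjusted p under 0.05, and limma-voom on recovered reads also called 0.

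Other genes of replication, from a separate list of 45, moved mostly the same way. In Dox_OOA vs Dox_OA 37 were lower and 1 higher, and in OOA vs OA 35 were lower and 6 higher, with a median log2 change of -0.42 and -0.96. Of all 12904 tested genes, 2198 were called lower and 2085 higher in Dox_OOA vs Dox_OA, and 3664 and 3673 in OOA vs OA. The 5 largest falls with water were those of Asf1b (-2.20 ± 0.06) and Chaf1b (-1.56 ± 0.07), histone chaperones of new chromatin, Uhrf1 (-1.90 ± 0.07), which guides maintenance methylation, Clspn (-1.73 ± 0.06), a fork checkpoint mediator, and Gmnn (-1.58 ± 0.11), the inhibitor of CDT1. The same 5 changed by -0.94, -0.73, -0.84, -0.83 and -0.59 with doxycycline. The 6 genes higher in OOA than in OA were Rrm2b (1.52 ± 0.06), Dctd (0.61 ± 0.06), Orc4 (0.44 ± 0.07), Mtbp (0.41 ± 0.05), Pold4 (0.31 ± 0.12) and Orc3 (0.14 ± 0.05). The call of Pold4 was lost without any one of OA libraries 1, 3 and 4 or OOA libraries 1 and 2, at adjusted p of 0.0541 to 0.117, and with no filter (0.0812). Rrm2b, the small subunit of ribonucleotide reductase that p53 induces, had 6.13, 6.22, 6.06 and 5.59 FPKM in Dox_OOA, against 3.78, 3.03, 3.64 and 3.54 FPKM in Dox_OA. Without doxycycline it had 11.9, 10.3, 10.8 and 11.4 FPKM in OOA, against 3.56, 3.28, 2.93 and 3.14 FPKM in OA. It moved opposite to Rrm2 in both arms, and its rise was smaller with doxycycline (difference -0.88 ± 0.09, adjusted p = 6.34e-08).

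Regulators of the cell cycle moved beside the set. Of 16 regulators of G1, 9 were lower and 3 higher in Dox_OOA vs Dox_OA, and 11 lower and 2 higher in OOA vs OA. Of 12904 tested genes, 2198 were lower and 2085 higher in Dox_OOA vs Dox_OA, and 3664 and 3673 in OOA vs OA. Cyclin D1 (Ccnd1) changed by -1.07 ± 0.04 with doxycycline and -1.46 ± 0.04 with water. E2f1, an activator of S phase genes, changed by -0.31 ± 0.08 and -0.73 ± 0.08, and the repressors E2f7 and E2f8 by -0.70 ± 0.07 and -0.82 ± 0.06 with doxycycline and -1.65 ± 0.07 and -1.89 ± 0.06 with water. Cdkn1a, the inhibitor p21 of cyclin kinases, was higher, by 0.34 ± 0.06 with doxycycline and 1.17 ± 0.06 with water. It had 26.1, 26.6, 22.9 and 25.9 FPKM in Dox_OOA, against 20.7, 20.1, 19.5 and 19.1 FPKM in Dox_OA. With water Cdkn1a had 49.9, 48.7, 47.5 and 46.6 FPKM in OOA, against 22.5, 22.7, 19.8 and 18.8 FPKM in OA. All 25 genes of a list for mitosis fell in both arms, with medians of -0.75 and -1.75, and Mki67, a marker of cycling cells, changed by -0.99 ± 0.08 and -1.98 ± 0.08.

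Markers of differentiated muscle also moved with the treatment. The 14 myotube markers summed to 62.9 to 85.3 FPKM in Dox_OOA against 77.99 to 93.8 FPKM in Dox_OA, and to 40.6 to 54.4 FPKM in OOA against 90.9 to 148 FPKM in OA. The sum was 99.1 to 119.3 FPKM in Dox_BSA against 150.1 to 193.5 FPKM in BSA. Of the 11 that passed the filter, 4 were lower in Dox_OOA vs Dox_OA, where 17% of all tested genes were called lower. All 11 were lower in OOA vs OA, where 28.4% of all tested genes were. Without oligomycin, 5 were lower in Dox_OA vs OA and 4 in Dox_BSA vs BSA, where 7.01% and 1.07% of all tested genes were. In Dox_OOA 1 of the 14 was listed at 0 in all 4 libraries. Myog, the factor that starts myotube formation, changed by -0.07 ± 0.18 with doxycycline (adjusted p = 0.810) and -0.77 ± 0.18 with water (adjusted p = 0.00101). The part of a changed share of differentiating cells in the levels of replication genes was not tested.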

How the data were processed

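RNA sequencing libraries of 6 groups, 4 each, were grouped by their labels. The authors deposited FPKM values for 56748 Ensembl genes with gene names, coordinates and lengths, per the file headers. Without giving roles, the submitters' processing notes list the tools edgeR, DESeq2, HTSeq, HISAT2, STAR and STAR-Fusion, with genome build GRCm39 (mm39). Use of strand in counting is not stated there. FPKM times gene length, divided by a value of 1 read inferred for each library, gave whole reads for 100% of values (tolerance 0.01), 20370651 to 29410667 per library. The library sizes behind the FPKM were not these sums. They were 21786231 against 22570912 reads in OOA library 1, and 22994477 against 22565127 in BSA library 2. The limma-voom alternative used the sizes behind the FPKM.

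The 12904 genes that reached 1 FPKM in 4 or more libraries were tested as log2(FPKM + 1) with limma 3.58.1 in R 4.3.3 (trend, robust), in 1 fit of 6 group means with 9 contrasts. P-values are two-sided and adjusted within each contrast over all tested genes (Benjamini-Hochberg), with a threshold of 0.05. Fold changes on this scale understate those of low genes. Errors of log2 changes are standard errors. The 39 members, the other lists and the tests were chosen with earlier results of these data known. From the other replication genes the text may name those called in OOA vs OA with the 5 largest and 5 smallest changes and those opposite to the list's median, and Mki67, Ccnd1, Cdkn1a, E2f1, E2f7, E2f8, Myog, Rrm2b and Ucp1 were named throughout. The fit was tested on simulated data. Ucp1 was compared by exact permutation. Alternatives were a pseudocount of 0.1, no filter, rescaling to a fixed sum, a replicate block, only the compared groups, limma-voom on recovered reads, and leaving out each library. Copies were sought with BLAST+ against GENCODE transcripts at 95% identity or more over at least 150 bases. Promoters come from RefSeq (GRCm38.p6), another build than the table's, and coordinates were not converted.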

Additional observations from a re-analysis of the deposited data

Results flagged for a closer look

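The oligomycin response differed between arms, by the interaction in limma's fit (adjusted p under 0.05, response with doxycycline minus response with water on the log2 scale), in 33 of the 39 members. Their counts and limits are given above, and all 33 were positive. In licensing the differences were 0.66 for Orc1, 0.37 for Orc6 and 0.74 for Cdc6, and in the MCM ring 0.56 for Mcm2, 0.76 for Mcm3, 0.72 for Mcm4, 1.12 for Mcm5 and 0.90 for Mcm6. For helicase activation they were 0.61 for Mcm10, 0.58 for Cdc45, 0.95 for Gins1, 0.45 for Gins2, 0.68 for Gins3 and 0.33 for Gins4. Pcna differed by 0.69, Rfc1 by 0.29, Rfc2 by 0.56, Rfc3 by 0.54, Rfc5 by 0.88, Rpa1 by 0.66 and Rpa2 by 0.68. Polymerase and primase genes differed by 0.57 (Pola1), 0.44 (Pola2), 0.75 (Prim1), 0.74 (Prim2), 0.39 (Pold1) and 0.52 (Pole). The others were Rrm1 (0.78), Rrm2 (1.41), Tk1 (0.77), Ccne1 (1.03), Ccne2 (0.73) and Lig1 (1.01).

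Among the other genes named, the difference was positive for Asf1b (1.26), E2f8 (1.07), Uhrf1 (1.06), Mki67 (1.00), Gmnn (0.99), E2f7 (0.95), Clspn (0.90), Chaf1b (0.83), Myog (0.70), E2f1 (0.41) and Ccnd1 (0.39). The call of Myog was lost without any one of 12 of the 16 libraries (adjusted p 0.0565 to 0.0994). The difference was negative for Rrm2b (-0.88) and Cdkn1a (-0.83), which were higher with oligomycin in both arms, and for Dctd (-0.64), Mtbp (-0.49) and Orc4 (-0.34), which were higher in OOA than in OA and were not called in Dox_OOA vs Dox_OA (-0.03, -0.08 and 0.09).

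A single library stood far from the other 3 of its group in 12 of 342 sets of 4 values (57 genes in 6 groups), where chance flags about 1 in 20, or 17.1. The high values were Mcm2 at 17.8 FPKM in BSA (median 17.0), Mcm3 at 41.5 FPKM in BSA (39.3), Mcm10 at 5.08 FPKM in OA (4.01) and 4.31 FPKM in BSA (3.58), Pcna at 49.9 FPKM in Dox_OA (43.8), Rfc3 at 9.53 FPKM in Dox_OOA (8.14) and Clspn at 9.12 FPKM in BSA (8.13). The low values were Cdc6 at 1.78 FPKM in Dox_OOA (2.28), Ccne1 at 3.91 FPKM in Dox_OOA (5.16), Rfc3 at 13.7 FPKM in OA (15.1), Dctd at 14.2 FPKM in OOA (15.0) and Rrm2b at 3.64 FPKM in Dox_BSA (4.10).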

How the results depend on the processing

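The number of members called was 38 in OOA vs OA under every alternative run, 37 to 38 in Dox_OOA vs Dox_OA, 31 to 35 for the difference between arms and 32 to 36 in Dox_OOA vs OOA, and no called change turned its sign. Values near 0 that were not called did turn without single libraries (the difference between arms for Mcm7 and Rpa3, Dox_OOA vs OOA for Cdt1 and Tyms, and Dox_OOA vs Dox_OA for Rpa3, Myog, Orc3 and Dctd). The smaller comparisons depended on the processing, and the cause was not tested. In OA vs BSA, 8 members became 5 without the filter and 5 with rescaling, and 4 to 7 when single libraries were left out. They became 11 with a replicate block and 12 by limma-voom. In Dox_OA vs Dox_BSA, 2 members became 0, and 866 genes became 512, when only the compared groups were fitted, and 0 to 2 members were called without single libraries. In Dox_BSA vs BSA, 2 members became 1 with a pseudocount of 0.1, 1 without the filter and 0 with only the compared groups, where 281 genes became 80. Single libraries moved these to 0 to 4 members and 173 to 302 genes, with 179 genes without BSA library 3, 177 without BSA library 4 and 173 without Dox_BSA library 2. In Dox_OA vs OA, 14 members became 6 without the filter, where 1458 genes became 935, and 8 with rescaling. They became 11 with a pseudocount of 0.1, 16 with only the compared groups, 17 with a replicate block and 17 by limma-voom. Without OA library 1, 2, 3 or 4 the 14 became 7, 5, 9 and 9, and without Dox_OA library 1, 2, 3 or 4 they became 6, 8, 8 and 7, while the count of all genes was 963 (without OA library 2) to 1250.

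Samples with the same replicate number had deviations correlated at -0.038 to 0.113, so the numbers were not taken as pairs. With a replicate block the count of members in Dox_BSA vs BSA was 4 instead of 2, and the other counts moved by less than 1.5 times. Myog lost the call for the difference between arms without any one of OA libraries 1 to 3, OOA libraries 1, 3 and 4, Dox_OA libraries 1, 3 and 4 or Dox_OOA libraries 1, 2 and 4, and with no filter (adjusted p = 0.0964). On log2(FPKM + 1) the low genes Fen1, Cdc6, Orc1 and Mcm10 had changes that grew by over 1.5 times with a pseudocount of 0.1 or by limma-voom. Few reads limit Fen1, with 19 to 167 per library, more than the other members. Of its transcript, 1911 bases match Gm10143 on the other strand, and whether this lowered its count was not tested.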
